A study of Rattus norvegicus with 28 samples.

Results

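The comparison described here sets the terminal ileum of formula-fed newborn rats that received hypoxic stress 3 times a day against that of breast-fed newborn rats, both taken on day 1 of life. The arrays were chosen by their titles, which gave 3 for formula plus hypoxia (FFH in the plots) and 3 for breast feeding (BF), 6 of the 28 arrays of the series. All 8740 non-control probe sets of the array belong to the comparison. The other arrays are 18 from days 2 to 4 of the same regimens and 4 from unfed newborns of day 0, and they are used here for the spread between arrays and as points of reference. Each array was made from the ileum of an individual pup, per the labels, and no strain, sex or litter is given. No group had formula without hypoxia, or hypoxia without formula, so their effects cannot be told apart. The series is titled as a study of necrotizing enterocolitis, the inflammatory bowel disease of newborns, and this rat regimen serves as its model.

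The newborn ileum changes from swallowing amniotic fluid to digesting milk within hours of birth. Its lining consists of enterocytes, which carry digestive enzymes and transporters on their brush border, and of goblet cells, which secrete mucins and trefoil peptides. Milk brings growth factors and antibodies that formula lacks, and mast cells, smooth muscle and connective tissue lie beneath the epithelium and are part of every sample of whole tissue. In such samples fewer cells of a type and less RNA per cell cannot be told apart.

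Signals are probe set intensities in arbitrary units, quantile-normalised over the 28 arrays. Changes are differences of log2(signal + 8), formula plus hypoxia minus breast feeding, so those of dim probe sets are understated. Of 5244 probe sets bright enough to be tested, limma called 9 (0.172%) at a Benjamini-Hochberg adjusted p under 0.05, 3 higher (0.0572%) and 6 lower (0.114%). An unadjusted p under 0.05 was reached by 453 (8.64%). The median standard error of a change was 0.33, and 8 of the 9 calls shared an adjusted p of 0.0498, just inside the threshold. With each gene represented by its brightest probe set, 6 of 3185 genes were called (0.188%), the median change of all genes was 0.06, and the 3 signals of one regimen lay wholly above or below those of the other in 441 genes (13.8%).

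Array quality touched both groups. Breast-fed replicate 2 belongs to another stretch of sample numbers than the other 5 arrays and has a trimmed mean deposited signal of 109, against about 150 in the others. Formula plus hypoxia replicate 2 has the highest signal of the 3′ beta-actin control relative to the 5′ one, a measure of RNA integrity, with a ratio of 4.17 against 1.14 to 1.42 in the other 5. Among the arrays used for the spread, breast-fed day 3 replicate 3 and day 4 replicate 2 had 70 and 49 abundant probe sets at least 16-fold below the median of the other arrays, and without both arrays 13 probe sets were called, 8 of them among the 9. Epithelial markers defined the tissue in all 6 arrays, and the liver-type fatty acid binding protein gene Fabp1 and the apolipoprotein gene Apoa1 were among the brightest, at 1369 to 7575.

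The strongest difference belonged to a probe set that the annotation leaves without a gene name, E00717UTR#1_s_at. Its signal was 43.0, 87.5 and 52.0 in the breast-fed pups and 323, 430 and 609 in the pups on formula plus hypoxia. The unfed newborns had 68.5, 46.7, 60.8 and 49.3. The breast-fed and unfed ranges thus overlapped, and every formula plus hypoxia array lay above both. The change was 2.75 (95% confidence interval 2.21 to 3.30, limma adjusted p = 1.09e-06), a 6.74-fold difference, and it was called under all 20 alternative settings that tested it. On day 2 the difference was 3.03, and on days 3 and 4 it was -0.03 and 0.07. It was the 1 probe set of 5244 (0.0191%) called in the test of the day 1 effect against the mean effect of days 2 to 4, with a difference of 1.73 (limma adjusted p = 0.0399); 311 (5.93%) had an unadjusted p under 0.05. That call was lost without breast-fed replicate 1, without formula plus hypoxia replicate 2 and without formula plus hypoxia replicate 3, each of which left 0 called.

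Cyp1a1 is a cytochrome P450 gene known as a target of the aryl hydrocarbon receptor. The probe set annotated to it followed the same course over the days as the unnamed one. Whether both report the same gene was not tested. The annotated probe set was too dim over the 28 arrays to enter the main test, and it was looked at after its values had been seen. Its signal was 8.62, 10.96 and 7.64 in the breast-fed pups, 72.3, 34.7 and 145 in those on formula plus hypoxia, and 6.04 to 10.7 in the unfed newborns. All 3 formula plus hypoxia arrays lay above every breast-fed and unfed array. In a fit of all 8740 probe sets with no filter, which called 2 (0.0229%), the change was 2.24 (95% confidence interval 1.59 to 2.90, limma adjusted p = 0.00129). On day 2 it was 3.43, and on days 3 and 4 it was 0.05 and -0.23. Fitting the 6 arrays alone ended the call (limma adjusted p = 0.269). With a pseudocount of 2 the change was 2.75 and with 32 it was 1.38, since the breast-fed signals lie near the pseudocount of 8. The related P450 gene Cyp1a2, also chosen after its values were seen, had a change of 0.25 (limma adjusted p = 0.89).

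Muc3 rose. It encodes a mucin that is anchored in the enterocyte membrane rather than secreted. Its signal was 384, 285 and 154 in the breast-fed pups and 1257, 1363 and 1261 in those on formula plus hypoxia, a change of 2.29 (95% confidence interval 1.37 to 3.22, limma adjusted p = 0.0498). The groups did not overlap, and the formula plus hypoxia arrays varied less. The unfed newborns ranged from 284 to 741, which overlapped with breast feeding and lay below all 3 formula plus hypoxia arrays. The other probe sets of the gene, M76740_g_at and M76740_at, had changes of only 0.29 and 0.28, so the probe sets of Muc3 disagree. Over days 2, 3 and 4 the change was 2.12, 1.27 and 1.65.

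Efna1, the gene of ephrin A1, a membrane-bound ligand of Eph receptors, rose as well. Its signal went from 143, 97.0 and 122 in the breast-fed pups to 313, 316 and 280 in those on formula plus hypoxia, a change of 1.29 (95% confidence interval 0.73 to 1.85, limma adjusted p = 0.0498). The regimens did not overlap, but the unfed newborns ranged from 180 to 377 and so overlapped with formula plus hypoxia. The second probe set of Efna1, D38056_at, had a change of 0.57 (limma adjusted p = 0.865).

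Among the lower probe sets, the largest change was that of Vch, a vascular chymase that belongs to the mast cell protease family. Its signal was 286, 297 and 550 in the breast-fed pups and 42.8, 123 and 29.8 in those on formula plus hypoxia. The groups did not overlap, and formula plus hypoxia replicate 2 was the highest of its group. The change was -2.55 (95% confidence interval -3.62 to -1.47, limma adjusted p = 0.0498), and it was -3.01, -3.69 and -3.11 on days 2, 3 and 4. Of the 9 tested genes of the mast cell marker list, which includes this vascular chymase, Vch was the 1 called. In that list 5 lay below 0 and the median was -0.25, against 0.06 over all genes. Which cells of the samples carry Vch was not tested. Mcpt4, a mast cell chymase, had 55.0, 48.5 and 67.8 in the breast-fed pups and 5.07, 35.2 and 3.78 in those on formula plus hypoxia, a change of -1.78 (limma adjusted p = 0.152). Its size was -2.35 with a pseudocount of 2 and -0.99 with 32. The mast cell genes Mcpt1 and Cpa3, chosen after their values were seen, had changes of -1.32 and -1.17, and in both formula plus hypoxia replicate 2 reached into the breast-fed range. The brightest marker, Mcpt1l1, had a change of 0.28, and the summed marker signal was 2039 to 3402 against 1461 to 2181 (exact permutation test, two-sided, p = 0.2).

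Mmp10, stromelysin 2, a protease that cuts matrix proteins, fell. Its signal was 168, 176 and 185 in the breast-fed pups and 43.7, 56.6 and 61.3 in those on formula plus hypoxia. The spread within each group was small beside the gap. The unfed newborns, at 61.7 to 103, lay near the formula plus hypoxia level. The change was -1.58 (95% confidence interval -2.22 to -0.95, limma adjusted p = 0.0498), -2.68 on day 2, and -0.25 and -0.75 on days 3 and 4. Mmp10 was the 1 called of 35 tested fibroblast and matrix markers, whose median was -0.16. The brightest of these, Sparc, a matrix glycoprotein gene, had a change of -0.42 with overlapping groups, which became 0.12 with the deposited scaling. Its dimmer probe sets Y13714_at and rc_AA891204_s_at had -0.84 and -1.07 with no overlap (limma adjusted p = 0.447 and 0.517). A further probe set of Sparc, rc_AA946313_s_at, had -0.48 with overlap.

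Arsb, the lysosomal arylsulfatase B that degrades sulfated glycosaminoglycans, fell from 201, 229 and 237 to 92.7, 67.3 and 79.6. The groups were far apart, and the change was -1.40 (95% confidence interval -1.98 to -0.82, limma adjusted p = 0.0498). Cbx5, the gene of the heterochromatin protein HP1 alpha, had 26.1, 31.8 and 30.2 in the breast-fed pups and 3.36, 8.88 and 3.77 in those on formula plus hypoxia. All of the latter lie near or below the pseudocount of 8, so the size of its change, -1.51 (limma adjusted p = 0.0498), depends on that setting and was -2.17 with a pseudocount of 2 and -0.72 with 32. A probe set annotated to several genes, rc_AI639039_at, went from 73.9, 50.8 and 102 to 18.2, 28.5 and 26.5, a change of -1.34 (limma adjusted p = 0.0498).

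**Figure D1:**
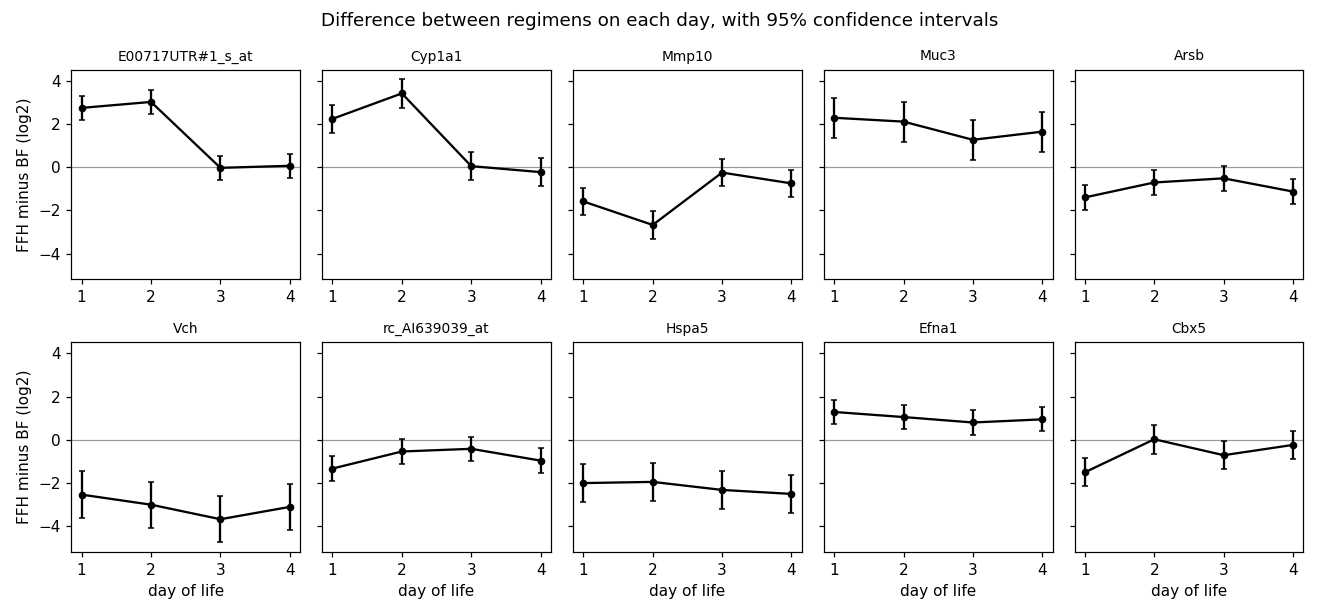
Difference between formula plus hypoxia and breast feeding (log2 scale) on each day of life, with 95% confidence intervals, for the 9 called probe sets and Cyp1a1; each point rests on 3 arrays per regimen. E00717UTR#1_s_at and Cyp1a1 were high on days 1 and 2 and near 0 on days 3 and 4, whereas Vch and Hspa5 (S63521_i_at) stayed at -1.96 or lower on all 4 days.

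Hspa5 encodes BiP, the main chaperone of the endoplasmic reticulum, the compartment in which secreted and membrane proteins are folded. Its probe set S63521_i_at fell from 333, 107 and 165 to 32.6, 61.7 and 28.7, with no overlap and a change of -2.01 (95% confidence interval -2.88 to -1.13, limma adjusted p = 0.0498). The brighter probe set, M14050_s_at, had 840, 526 and 660 against 262, 540 and 298, so formula plus hypoxia replicate 2 overlapped with breast feeding, and its change was -0.91 (limma adjusted p = 0.649).

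Chaperone genes of this compartment are known to share a promoter element, the endoplasmic reticulum stress response element, so the 250 bases before the start of Hspa5 (RefSeq, GRCr8, plus strand, chr3:38452766-38453015) are shown with that element in capitals.
Hspa5: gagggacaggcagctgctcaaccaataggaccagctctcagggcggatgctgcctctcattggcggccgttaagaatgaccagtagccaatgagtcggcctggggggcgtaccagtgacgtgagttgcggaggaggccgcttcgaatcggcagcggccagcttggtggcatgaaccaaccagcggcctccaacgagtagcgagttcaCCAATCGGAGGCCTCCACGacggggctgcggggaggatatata

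The element, CCAAT and CCACG with any 9 bases between them, was searched on both strands in windows of 300 bases, and 22 of 33469 rat promoters (0.0657%) held it. Of the 14 tested genes of the list that had a promoter in the table, 4 held it. Their elements, 5′ to 3′ with the fixed letters in capitals, are shown because these are the measured chaperone genes that share it.
Hspa5: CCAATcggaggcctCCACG
Calr: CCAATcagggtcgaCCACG
Canx: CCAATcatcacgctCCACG
Hsp90b1, first element: CCAATcgaaaggagCCACG
Hsp90b1, second element: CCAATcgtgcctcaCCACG

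All tested probe sets of these 4 genes had a change below 0, and S63521_i_at of Hspa5 was the 1 called. Over all genes 44.2% lay below 0, and several probe sets of 1 gene are not separate genes. The 4 were not compared with the list genes that lack the element, so a part of the element in these values was not tested. The brightest probe sets of Calr, Canx and Hsp90b1, further chaperones of the compartment that were chosen after their values were seen, had changes of -0.52, -0.15 and -0.15 (limma adjusted p = 0.70, 0.981 and 0.953), the signs of the last 2 turned under some alternatives, and in each the groups overlapped. Some dimmer probe sets had larger differences. The probe set D78308_g_at of Calr had 421, 396 and 439 in the breast-fed pups and 210, 155 and 256 in those on formula plus hypoxia, with no overlap and a change of -1.01 (limma adjusted p = 0.295). The probe sets rc_AA893328_at of Canx and AA685903_at of Hsp90b1 had changes of -1.60 and -1.41 with overlap (limma adjusted p = 0.295 and 0.517), so the probe sets of these genes disagree in size. Of the 16 tested genes of the endoplasmic reticulum list, each by its brightest probe set, 0 were called, 12 lay below 0 and the median was -0.46. The median stayed between -0.51 and -0.34 under all 21 alternatives. Serpinh1, the collagen chaperone HSP47, chosen after its values were seen, came nearest to a call: it had 192, 138 and 153 against 79.3, 42.8 and 51.6, a change of -1.38 (limma adjusted p = 0.0504). P4hb, the brightest member, had a change of 0.11 that turned without formula plus hypoxia replicate 3, and its other probe sets, X02918_g_at and M21476_s_at, had 0.55 and -0.76.

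Leaving out any 1 of the 6 arrays ended most of the 8 calls at 0.0498. Without breast-fed replicate 1 or formula plus hypoxia replicate 1, E00717UTR#1_s_at alone was called. Without breast-fed replicate 2, 4 were called, among them Hspa5 and rc_AI639039_at at an adjusted p of 0.0363 each, and without formula plus hypoxia replicate 2, 4 were called, among them Vch at 0.0229. Without breast-fed replicate 3 or formula plus hypoxia replicate 3, 2 were called, of which 1 was among the 9. The signs of all 9 changes were kept in every alternative that tested them. Within the stretch of sample numbers that holds the other 5 day 1 arrays, 11 probe sets were called, 5 of them among the 9.

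Of the 29 pathway lists, 0 held a called gene, where only 0.188% of all genes were called. The median lay above 0 in 14 lists and below 0 in 15. Over all genes 55.8% had a change above 0 and 44.2% below 0, the shares to set beside the list counts that follow. The brush border list holds the enzymes and transporters with which enterocytes digest and take up food, and 15 of its 19 tested genes had a change below 0, with a median of -0.45. Lct, Slc3a1 and Slc2a5 were chosen after their values were seen. Lct, the gene of lactase, had 565, 644 and 514 against 247, 275 and 495, with no overlap and a change of -0.81 (limma adjusted p = 0.422), and its dimmer probe set L04635exon_s_at had -0.06 with overlap. Slc3a1, a subunit of the cystine transporter, had 311, 218 and 226 against 80.3, 96.9 and 88.9, a change of -1.41 (limma adjusted p = 0.21). Mep1a, the brightest member and a subunit of the protease meprin, overlapped between groups, with a change of -0.33 that became 0.041 without formula plus hypoxia replicate 1. Its dimmer probe set S43408_at had -0.65 with no overlap (limma adjusted p = 0.74). Slc2a5, the fructose transporter gene, went the other way at 1.07 and overlapped (limma adjusted p = 0.51). The epithelial markers had a median of -0.30 beside this, with 16 of 21 below 0, and their summed signal was 33184 to 39023 with formula plus hypoxia and 38544 to 45756 with breast feeding (exact permutation test, two-sided, p = 0.2; 3 against 3 arrays cannot go below 0.1). Their part in the brush border values was not tested.

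Goblet cells secrete the mucus layer, and Paneth cells release antimicrobial peptides. Of 10 tested markers of these cells, Muc3 was the 1 called, 7 lay below 0 and the median was -0.20. Muc2, the gel-forming mucin, had 765, 1044 and 323 against 153, 248 and 243, with no overlap and a change of -1.57 (limma adjusted p = 0.295), but its other probe set, U68172mRNA_s_at, had 0.12. Tff3, the trefoil peptide that goblet cells secrete with mucin, had 4612, 6701 and 5534 against 3930, 3338 and 2730, a change of -0.75 (limma adjusted p = 0.51). That change was -0.28 with the deposited scaling and -0.40 with a common median scaling. The summed signal of the marker list was 9099 to 10706 in the breast-fed pups and 6800 to 7385 in those on formula plus hypoxia, without overlap, and the exact two-sided permutation p of 0.1 is the smallest that 3 against 3 can give. The unfed newborns had 7039 to 8640. Within the breast-fed and formula plus hypoxia sums, with means of 9838 and 6999, Tff3 alone averaged 5616 and 3332. The difference between the sums therefore rests largely on Tff3, whose change depends on the scaling. Muc3, the mucin of the enterocyte membrane, is also counted in the sums and rose.

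**Figure D2:**
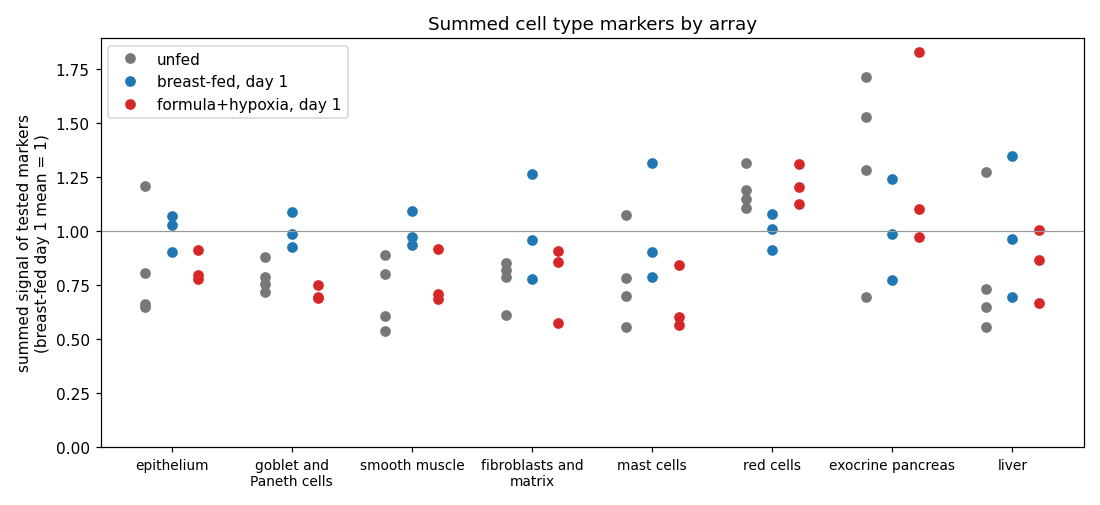
Summed quantile-normalised signal of the tested markers of 8 cell types in each array, relative to the mean of the 3 breast-fed day 1 arrays, for 4 unfed, 3 breast-fed and 3 formula plus hypoxia arrays. Goblet and Paneth cell and smooth muscle sums were lower, and red cell sums higher, in all 3 formula plus hypoxia arrays than in any breast-fed array; the sums of the other 5 cell types overlap.

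The sums of markers of smooth muscle and of red cells also lay apart between the regimens. The smooth muscle sum was 14635 to 17050 with breast feeding and 10729 to 14292 with formula plus hypoxia, and the red cell sum 14467 to 17094 against 17789 to 20752 (exact permutation p = 0.1 for each). Of 17 smooth muscle genes 14 lay below 0, with a median of -0.36 that shrank to -0.08 with the deposited scaling. Of 12 red cell genes 10 lay above 0, with a median of 0.33 that grew to 0.49 with a common median scaling and 0.60 with the deposited scaling. Hbb, the beta globin gene, had a change of 0.26, which ranged from 0.22 to 0.92 under the alternatives. Exocrine pancreas markers had 6 of 7 above 0 and a median of 0.47; Ctrc, the digestive protease chymotrypsin C, chosen after its values were seen, had 22.5 to 26.5 in the breast-fed pups against 98.1, 127 and 117, a change of 1.88 with no overlap (limma adjusted p = 0.152), and the brightest marker Cela1 had 0.13, whose sign turned under some alternatives. The part of these shifts in the changes of single genes was not tested.

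Genes of cell division had a median of -0.35, with 26 of 35 below 0 and 0 called. Pcna, the sliding clamp of replication, chosen after its values were seen, had 1686, 1195 and 1156 against 611, 1531 and 907, which overlapped. Mcm6, a replicative helicase subunit chosen after its values were seen, had 442, 359 and 348 against 264, 200 and 247, with no overlap and a change of -0.68 (limma adjusted p = 0.499). Its dimmer probe sets U17565_at and rc_AI639082_s_at had only -0.36 and -0.11, both with overlap. Tubb5, the brightest member, had 0.07, which became -0.19 without formula plus hypoxia replicate 1, and its dimmer probe set AB011679_at had -1.15 with no overlap (limma adjusted p = 0.574).

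Mucosal defence genes had a median of 0.31, with 12 of 19 above 0 and 0 called. That median was -0.04 with the filter at the 60th percentile and 0.11 without both replicates 2. Of the 43 gene lists, 21 kept the sign of their median under all alternatives. Lgals3, galectin 3, a lectin of enterocytes and macrophages, had 449, 555 and 608 against 2031, 1479 and 1878, a wide gap with a change of 1.72 (95% confidence interval 0.85 to 2.60) that missed the threshold (limma adjusted p = 0.114). Lcn2, lipocalin 2, an iron-sequestering antibacterial protein chosen after its values were seen, had 114, 195 and 219 against 823, 229 and 652, where formula plus hypoxia replicate 2 lay close to the breast-fed pups; its change was 1.51 (limma adjusted p = 0.309). The list's brightest gene, Lgals4, had -0.11, which became 0.51 with the deposited scaling.

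Mediators known from studies of this disease showed no call on day 1. Only 0.188% of all genes were called, so the lack of a call does not set these genes apart. The 15 such genes were fixed for this report with earlier results of these data known. Of them 10 were tested, and Tnf, Il6, Ptgs2, Pla2g2a and Tlr4 lay below the filter. Ccl11, the eosinophil attractant eotaxin, had 90.0, 64.7 and 131 against 44.0, 23.3 and 13.0, a change of -1.62 with no overlap (limma adjusted p = 0.295). Areg, the growth factor amphiregulin, had 24.6, 34.7 and 24.6 against 79.6, 73.9 and 48.7, a change of 1.05 with no overlap (limma adjusted p = 0.517). Nos2, the inducible nitric oxide synthase, had 42.6, 217 and 202 against 57.1, 74.8 and 44.6, where breast-fed replicate 1 lay below all 3 formula plus hypoxia arrays. Its change of -1.03 (limma adjusted p = 0.752) was -1.73 without that array and -0.65 without breast-fed replicate 2. Il1b, the cytokine interleukin 1 beta, had -0.65 with overlapping groups (limma adjusted p = 0.517). By their brightest probe sets, Il18 had 0.11, Vegfa -0.12 and Ptafr, the receptor of platelet activating factor, -0.05. The sign of each of these turned under some alternative. The dimmer probe set AJ222813_s_at of Il18 had 0.48 with no overlap (limma adjusted p = 0.88). Dimmer probe sets rc_AA850734_at of Vegfa and S71597_s_at of Nos2 had 0.35 and -0.22 with overlap. The 25 tested cytokine and NF-kB genes had a median of -0.04.

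The hypoxia response and glycolysis list was close to the median of all genes, with 13 of 23 above 0, a median of 0.06 and 0 called. Hif1a, the oxygen-regulated transcription factor, had 63.6, 50.4 and 59.9 against 25.5, 34.2 and 53.4, a change of -0.57 (limma adjusted p = 0.767). Hmox1, heme oxygenase 1, which was chosen after its values were seen, had 3514, 3514 and 427 in the breast-fed pups against 585, 595 and 778. Breast-fed replicate 3 lay below all 3 formula plus hypoxia arrays, and the change of -1.42 was not called (limma adjusted p = 0.517). That change ranged from -2.43 to -0.92 with each replicate left out and reached -0.55 under another alternative. The dimmer probe set J02722cds_at of Hmox1 had -2.14 with overlap (limma adjusted p = 0.517). Immediate early genes had a median of 0.12, with 15 of 24 above 0, and their brightest member Klf10, a zinc finger factor, had 216, 217 and 241 against 302, 455 and 302 (change 0.61, limma adjusted p = 0.517), while its dimmer probe set rc_AI071299_at had -0.83 with overlap.

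**Figure D3:**
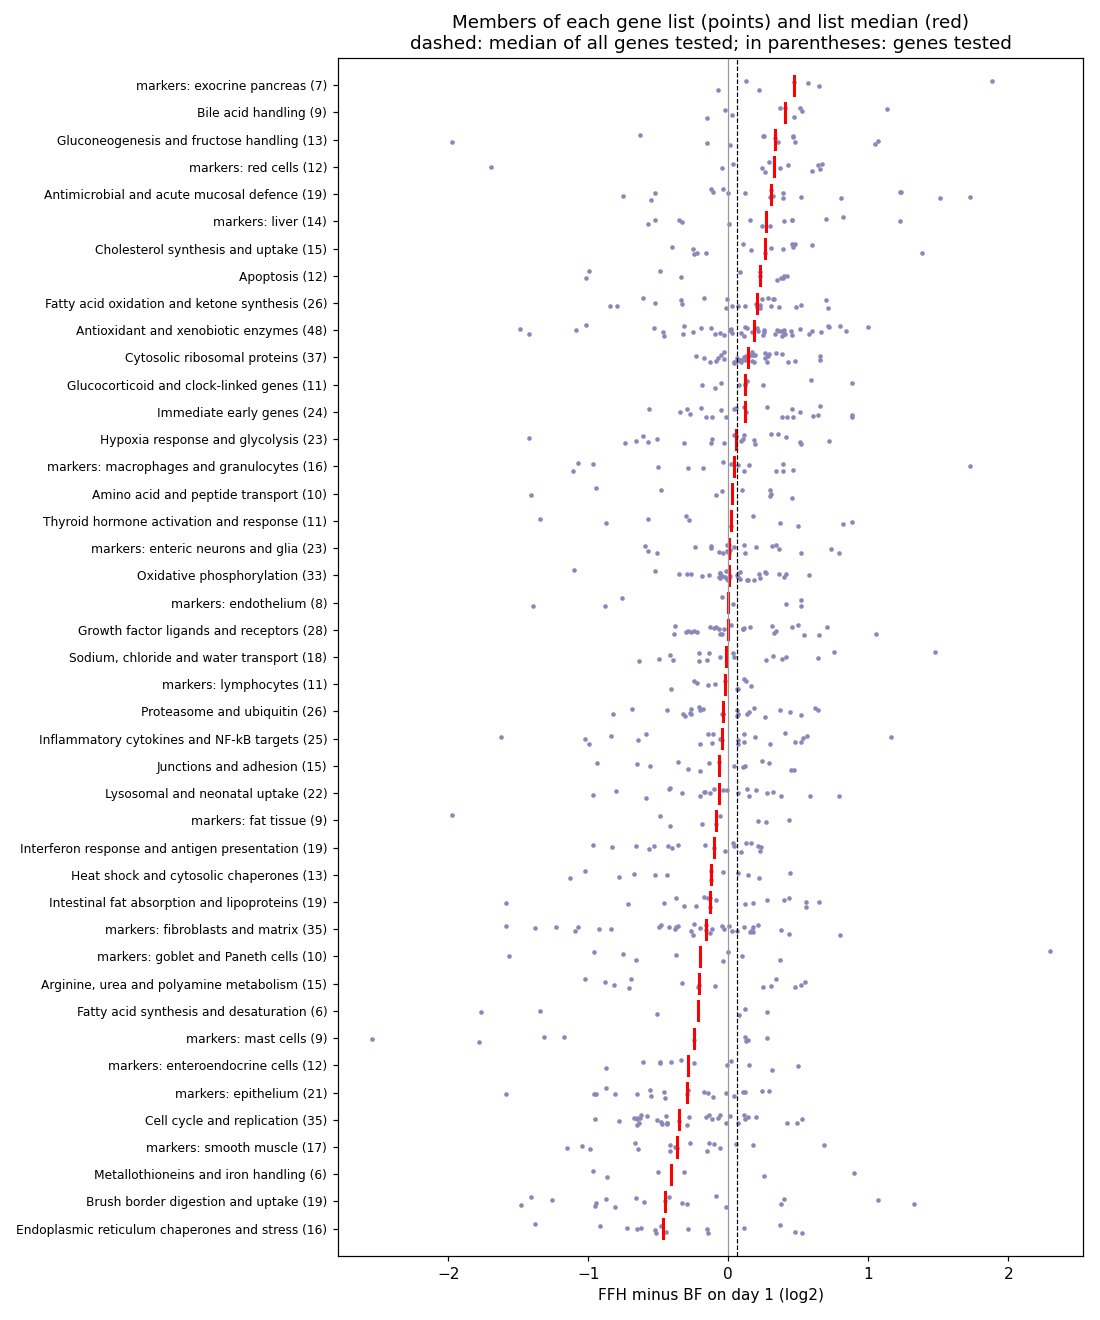
Day 1 change (log2 scale) of every tested member of the 43 gene lists, as points, with the list medians as red bars; the dashed line is the median of all 3185 genes tested, 0.06, and the number of tested genes stands in parentheses. Most lists straddle 0, and the endoplasmic reticulum list (-0.46), the brush border list (-0.45) and the bile acid list (0.40) lie among the ends.

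Metabolic lists held single genes with large but uncalled differences, of which Cyp27a1, Pck1 and Fabp1 were chosen after their values were seen. Bile acid handling had 7 of 9 genes above 0 and a median of 0.40; Cyp27a1, a sterol hydroxylase of bile acid synthesis, had 138, 222 and 163 against 282, 361 and 559, a change of 1.13 with no overlap (limma adjusted p = 0.361), and Fabp6, the ileal bile acid binding protein, had 0.40. Gluconeogenesis and fructose handling had 10 of 13 above 0 and a median of 0.33, but Pck1, which encodes its rate-limiting enzyme, had 273, 78.6 and 307 against 63.1, 9.97 and 90.6, a change of -1.98 with overlap (limma adjusted p = 0.517) that ranged from -2.57 to -1.24 with each replicate left out. Fabp1, the enterocyte fatty acid binding protein, had 4789, 6859 and 6967 against 1369, 3930 and 1554, with no overlap and a change of -1.59 (limma adjusted p = 0.53). With the deposited scaling its groups overlapped and the change was -1.15. Cytosolic ribosomal protein genes had a median of 0.14 that became 0.60 with a common median scaling and 0.72 with the deposited scaling, so their level relative to other genes depends on the scaling.

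Genes that differed on days 2 to 4 mostly had a change of the same sign on day 1. Averaged over days 2 to 4, whose 18 arrays share none with day 1, 293 of 3185 genes were called (9.2%), 106 higher (3.33%) and 187 lower (5.87%). On day 1, 92 of the 106 (86.8%) also had a change above 0, with a median of 0.40 against 0.86 later, and 154 of the 187 (82.4%) had one below 0, with a median of -0.39 against -0.76 later. Over all genes, 55.8% were above 0 and 44.2% below 0 on day 1. An unadjusted p under 0.05 in the same direction was reached by 23 of the 106 (21.7%) and 57 of the 187 (30.5%), beside 4.33% and 4.55% of all genes, and in the opposite direction by 1 of each set. These counts describe the sets and carry no test. The genes were selected by their later change, which favours large later values. The day 1 and later medians therefore do not measure how much smaller the day 1 change was.

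The mean log2 level of the higher set minus that of the lower set gave -0.50, -0.40 and -0.67 in the breast-fed pups and 0.35, 0.11 and 0.58 in those on formula plus hypoxia. The unfed newborns had -0.17, -0.27, -0.42 and -0.20. The 3 formula plus hypoxia arrays thus lay above all others, and replicate 2, with the high 3′ to 5′ ratio, was the lowest of them. Of the day 1 calls, 2 genes of the higher set and 3 of the lower set were called in both.

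**Figure D4:**
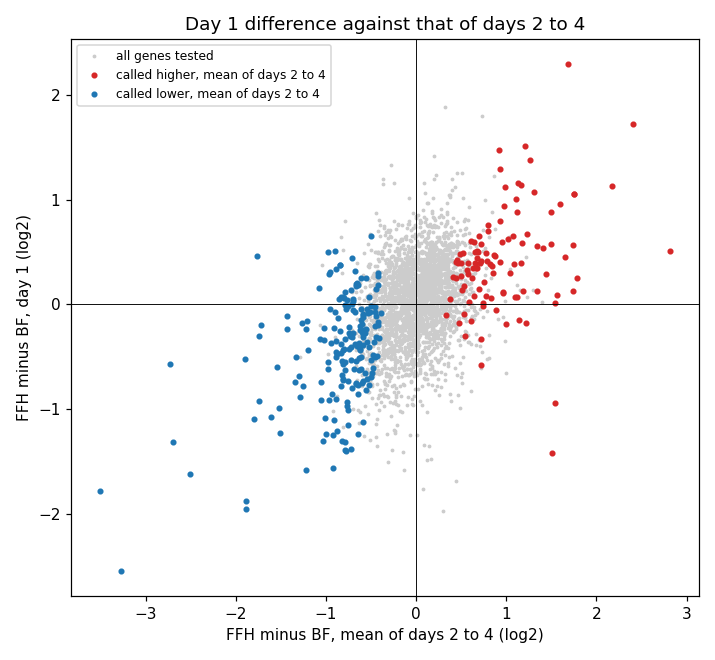
Change on day 1 (vertical axis, log2 scale) against the mean change of days 2 to 4 (horizontal axis, log2 scale) for the 3185 genes tested, with the 106 genes called higher and the 187 called lower over days 2 to 4 in colour. Most coloured points, 92 and 154 of them, lie on the same side of 0 on day 1. These genes were selected by their later change, so the sizes on the axes are not on equal terms.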

How the data were processed

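The deposited values are probe set intensities of Affymetrix rat arrays, on a linear scale per the file's values; how the authors summarised and scaled them is not stated in the labels or the table. Of the 8740 non-control probe sets 7006 carry 1 gene symbol, 308 several and 1426 none. Intensities were quantile-normalised over 28 arrays and converted to log2(value + 8). Probe sets with a mean above the 40th percentile (signal 24.0) were tested with limma 3.58.1 in R 4.3.3 (9 group means, eBayes with trend, Benjamini-Hochberg over 5244 probe sets). The code was tested on simulated data. A gene was described by its brightest tested probe set. Genes were named by rule: called genes whose groups did not overlap, called or brightest list members, and 15 disease genes; others are said to be chosen after their values were seen. Members, lists and the set of later genes were chosen with earlier results of these data known. Replicate numbers did not pair the pups. The limma p-values rest on the spread between pups within a group, pooled over the 9 groups of the 28 arrays and adjusted towards that of other probe sets. With the 6 arrays of day 1 alone, 2 probe sets were called, 1 of them among the 9.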

Additional observations from a re-analysis of the deposited data

Results flagged for a closer look

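The effect on the unnamed probe set E00717UTR#1_s_at differed between day 1 and the mean of days 2 to 4 by 1.73 on the log2 scale (limma adjusted p = 0.0399); day 2 had the larger value, 3.03, and days 3 and 4 were near 0. Cyp1a1, a probe set below the filter on low values and so outside the main test, had a day 1 change of 2.24 on the log2 scale, above the level of the unfed and breast-fed arrays. None of the 9 called probe sets had an array standing apart among the 4 unfed newborns.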

How the results depend on the processing

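The count of 9 called probe sets became 3 with the deposited scaling, 2 with a common median scaling, 4 with a pseudocount of 32, 2 with the 6 arrays alone, 1 with the stretch of sample numbers as a term, 89 (35 higher, 54 lower) with array weights, 2 with no filter, and 1 to 4 with each replicate left out. The replicate block gave 6, and leaving out the 2 breast-fed arrays of days 3 and 4 that lost abundant probe sets gave 13. The count of 1 call for the day 1 effect against days 2 to 4 became 0 with a pseudocount of 2, the stretch as a term, the replicate block and no filter. That count was 6 with array weights and 0 to 1 with each replicate left out. It was also 0 with 1 test per gene, a setting that could not test the called probe set because it has no gene symbol. The 84.0% of later genes with the same direction on day 1 became 77.2% with the deposited scaling, 89.8% within the first stretch and 75.3% to 83.5% with each replicate left out. Of the 69 results for single genes or probe sets followed under the alternatives, signs turned for 12 genes. Ptafr had 0.047 with the deposited scaling and -0.17 to 0.032 with each replicate left out. Canx had 0.023 with the deposited scaling, -0.67 to 0.38 with replicates left out and 0.22 without formula plus hypoxia replicate 1. Hsp90b1 had -0.52 to 0.17 with replicates left out, 0.036 without breast-fed replicate 1 and 0.12 without both replicates 2. Il18 had -0.32 to 0.50 with replicates left out and -0.27 without both replicates 2. Vegfa had -0.40 to 0.054 with replicates left out. With the deposited scaling Sparc had 0.12, Apoa1 0.49 and Lgals4 0.51, and with a common median scaling Apoa1 had 0.37 and Lgals4 0.39. With replicates left out, Apoa1 had -0.34 to 0.0077, Lgals4 -0.34 to 0.020, Mep1a -0.58 to 0.041, P4hb -0.016 to 0.24, Cela1 -0.31 to 0.47 and Tubb5 -0.19 to 0.34. The cause was not tested. Of 903 list medians under alternatives, 30 moved by more than their spread. The median shift of all probe sets, 0.03, was 0.14 with the deposited scaling. Leaving out both replicates 2 was chosen after seeing the data, as were the alternatives for Cyp1a1 and the later genes. Same-numbered pups deviated together with correlations of -0.06, 0.13 and -0.07. With 3 arrays a group, even differences several times the median standard error of 0.33 could miss a call. Serpinh1, at -1.38 with a standard error of 0.296, was not called, and the smallest called change was that of Efna1, 1.29. A gene or list without a call is therefore not shown to be unchanged.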
